A study of Mus musculus with 8 samples.

Results

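The comparison described here is KO against WT in CD8 T cells taken from the spleen and sequenced before any culture (day 0). It uses the 4 day 0 libraries of the 8 in the series, 2 labelled WT and 2 labelled KO, chosen by the genotype and day in their labels. The mice were of the C57BL/6 strain, and the series describes them as *Satb1* F/F with *E8I-cre*, a recombinase whose driver is active in mature cells of the CD8 lineage. Genotypes appear in the labels simply as WT and KO, and nothing states which of these alleles the WT mice carried, how many mice entered a library, or their age. The cells were sorted and uncultured in all 4 libraries, and what was measured is the number of reads per gene in a library made from total RNA. The other 4 libraries, from cells cultured for 5 days, share no sample with this comparison and are used here to estimate the spread and to ask whether a day 0 difference was also present after culture.

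SATB1 is a nuclear protein that binds AT-rich DNA and organises chromatin loops, and it is abundant in thymocytes and in resting T cells. CD8 T cells that leave the thymus are kept in a resting, recirculating state by a set of naive-cell genes. On activation they switch on cytokines, killing proteins, migration receptors and inhibitory receptors, and a minority already have memory-like features without known infection. FOXP3, Helios (*Ikzf2*) and CTLA4 are proteins best known from regulatory T cells.

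Library totals were between 4223381 and 11117971 counts, and 21.2% to 23.9% of all reads were assigned to genes. The deepest library was KO replicate 1. KO replicate 2 stood somewhat apart from the others, with a count for 26002 genes against 21731 to 22982 in the other 3 and with 33.7% of its reads outside annotated genes against 30.4% to 31.4%. Replicates of a group nevertheless were the closest pairs, with a correlation of log2 CPM across genes of 0.976 for WT and 0.975 for KO, and 0.966 to 0.970 between the groups. CPM are here the counts divided by library size in megareads, with sizes scaled by the trimmed mean of M-values. The labelled cell type was checked against marker genes. The 5 defining CD8 T-cell genes together reached 8795 to 9347 CPM. *Cd4* was between 0 and 0.918 CPM, and *Ms4a1*, *Ncr1*, *Adgre1* and *S100a9* were each below 1 CPM in every library. The 18 B-cell markers summed to 2280.4 and 2293 CPM in WT and 2102 and 2514 CPM in those labelled KO, most of it *Ighm* (1899 to 2277 CPM), the constant gene of the mu heavy chain. *Cd79b* of the B-cell list was at 118 to 164 CPM. The myeloid list summed to 600 to 714 CPM, most of it *Ctss* and *Cst3*. The stromal and endothelial list summed to 290 to 394 CPM, most of it *Pecam1* (285 to 393 CPM). The summed NK-cell, CD4 T-cell and erythroid lists did not exceed 6.26 CPM in any library. Most of their genes were too low to test, with 1 of 8 NK-cell, 2 of 3 CD4 T-cell and 0 of 11 erythroid genes tested.

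The level of the targeted gene went against the labels before culture. *Satb1* was at 97.8 and 91.6 CPM in the WT libraries and at 144 and 125 CPM in the libraries labelled KO. Its log2 fold change was 0.51 (SE 0.15) and was not called, with an FDR of 0.125. Each FDR given here is the Benjamini-Hochberg adjusted p of the quasi-likelihood test in edgeR. The counts are totals over the gene, so loss of the floxed exons cannot be seen in them. At day 5 the same gene was lower in the libraries labelled KO (log2 fold change -0.84, SE 0.15, FDR 0.0162). KO therefore stands only for the label of a library, and every direction below rests on that label.

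Of 12597 genes tested, 227 (1.8%) were called at an FDR under 0.05, with 115 above WT in the libraries labelled KO (0.913% of those tested) and 112 below (0.889%). Among them, 85 rose and 64 fell by at least 2-fold. The called genes were mostly well expressed, with a median level of 48.4 CPM against 19.4 CPM over all genes tested. The replicates of the groups did not overlap for any of the 227, which was also true of 43.4% of all genes tested. At an unadjusted p under 0.05 there were 1742 genes. Over all genes the log2 fold change had a median of -0.0017, which the scaling holds near 0, the median size of a change in either direction was 0.23, and for 7478 genes (59.4%) the 95% interval of the change lay within 1 log2 unit of 0. A group of 2 libraries leaves the number of calls sensitive to each of them. It was 38 without WT replicate 1 and 49 without WT replicate 2, 200 without KO replicate 1 and 170 without KO replicate 2, with 78 higher and 122 lower without KO replicate 1 and 106 higher and 64 lower without KO replicate 2. Between 2 and 2 libraries an exact permutation test of a single gene cannot give a p below 0.333, so the calls rest on the spread pooled across genes and over all 8 libraries.

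**Figure D1:**
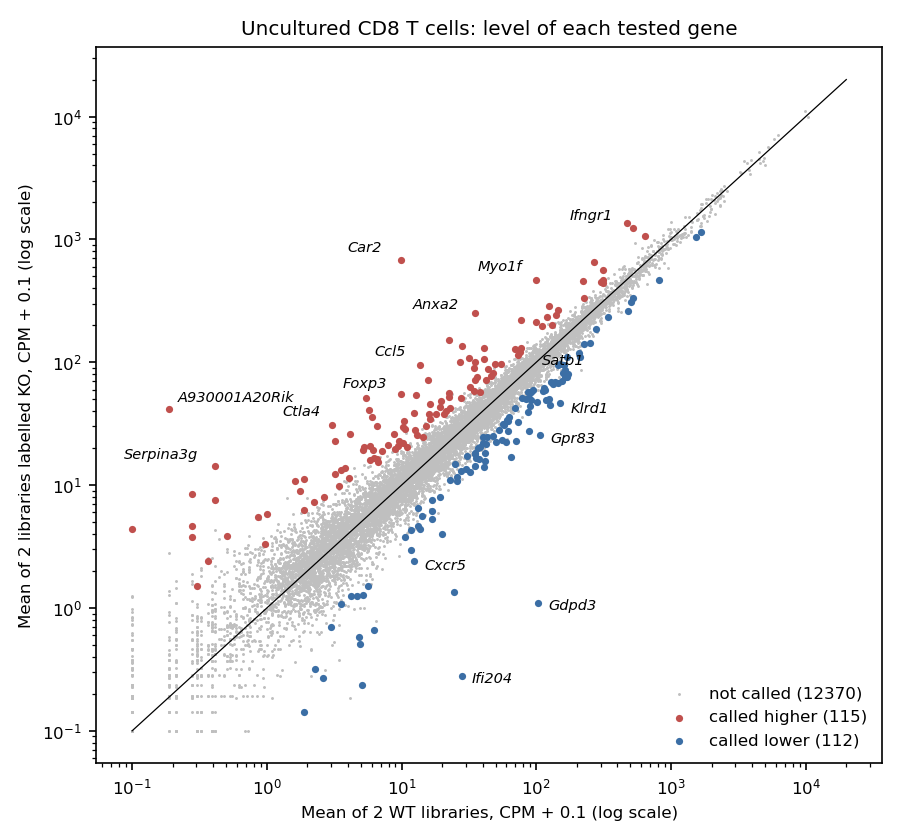
Mean level of each of the 12597 genes tested in the 2 WT libraries (horizontal) and in the 2 libraries labelled KO (vertical), in CPM + 0.1 on log axes. The line marks equal levels, red and blue points are the 115 genes called higher and the 112 called lower, and grey points were not called; *Car2* (9.88 against 674 CPM) and *Gdpd3* (103 against 0.991 CPM) lie far from the line and *Satb1* lies close to it.

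The genes raised most in the libraries labelled KO came from several functional classes. The largest increase among genes with an assigned name was in *Car2*, which encodes a cytosolic carbonic anhydrase. It was at 11.6 and 8.14 CPM in WT and at 673 and 674 CPM in those labelled KO (log2 fold change 6.07, SE 0.18, FDR 2.16e-09). The distance between the groups was thus many times the spread within them. Of the 7 carbonic anhydrases tested, *Car2* was the 1 called (14.3%, against 1.8% of all genes). The long non-coding RNA *A930001A20Rik*, which ends 116 kb from the start of *Car2*, was named here after its values were seen. It had 0.179 and 0 CPM in WT and 35.2 and 48.4 CPM in the libraries labelled KO, and 3 tested genes in all lie in the stretch that these 2 span.

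*Anxa2*, for a calcium-dependent membrane-binding protein, was at 24.0 and 46.1 CPM in WT and at 252 and 250 CPM in the libraries labelled KO (log2 fold change 2.85, SE 0.23, FDR 4.27e-05). *Myo1f*, for a leukocyte class I myosin, was at 97.3 and 101 CPM against 458 and 483 CPM (2.25, SE 0.12, FDR 1e-06). Both genes had replicates that agreed closely in the libraries labelled KO, and with *Car2* they are among the abundant transcripts of this group. *Lclat1*, for a cardiolipin acyltransferase, rose from 34.0 and 21.7 CPM to 127 and 146 CPM (2.28, SE 0.21). *Ccl5*, a chemokine of memory CD8 T cells, was at 16.3 and 10.9 CPM in WT and at 68.8 and 122 CPM in the libraries labelled KO (2.78, SE 0.41). The replicates of *Ccl5* differed within each group, and its call was lost without WT replicate 1 and without WT replicate 2. *Pttg1*, which encodes securin, the inhibitor of the protease that releases sister chromatids, was at 24.1 and 20.8 CPM against 186 and 118 CPM (2.76, SE 0.44). *Lhfpl1* was at 3.58 and 4.52 CPM against 28.6 and 23.7 CPM (2.70, SE 0.37). Of the 15 genes with the largest increases by rule, 8 kept their call without each of the 4 libraries, namely *Car2*, *Ctla4*, *Tcrg-C4*, *Serpinb1a*, *Anxa2*, *Tcrg-C2*, *Lclat1* and *Myo1f*. The other 7 were *Serpina3g*, *Ccl5*, *Trgv2*, *Pttg1*, *Lhfpl1*, *Foxp3* and *Ikzf2*. Without WT replicate 1, 8 of the 15 were called, and without WT replicate 2 there were 10.

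Among the genes that fell, *Ifi204* and *Gdpd3* had the lowest levels in the libraries labelled KO relative to WT among the 15 chosen by rule. *Ifi204*, an interferon-inducible DNA sensor of the PYHIN family, was at 27.5 and 28.0 CPM in WT and had 2 and 1 counts in the libraries labelled KO. Against a floor of 3 counts per library, taken from the shallower of the 2, this is at least 50.5-fold lower. *Gdpd3*, for a lysophospholipase D of the glycerophosphodiesterase family, was at 84.4 and 122 CPM against 0.515 and 1.47 CPM (log2 fold change -6.91, SE 0.51, FDR 2.24e-05). *Gdpd3* had 6 and 8 counts in the libraries labelled KO. Among the other decreases were 3 in surface receptors. *Gpr83*, a G protein-coupled receptor found on regulatory T cells, was at 103 and 111 CPM against 23.4 and 27.5 CPM (-2.08, SE 0.22). *Klrd1*, which encodes CD94, the partner chain of some NKG2 receptors, was at 144 and 158 CPM against 47.7 and 46.1 CPM (-1.69, SE 0.14, FDR 4.27e-05). *Cxcr5*, the receptor that guides lymphocytes into B-cell follicles, was at 13.2 and 11.3 CPM against 1.29 and 3.30 CPM (-2.53, SE 0.50, FDR 0.0243).

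The other 10 of the 15 largest decreases were smaller in level or in change. *Igfbp4*, for an insulin-like growth factor binding protein listed with the naive state, was at 121 and 130 CPM in WT and at 47.4 and 41.3 CPM in the libraries labelled KO (-1.50, SE 0.23). *Gltscr2*, for a nucleolar protein, was at 73.9 and 67.2 CPM against 23.8 and 21.5 CPM (-1.63, SE 0.34), and *Lcn4*, for a lipocalin, at 69.4 and 60.6 CPM against 16.7 and 16.7 CPM (-1.96, SE 0.22). *Nacc2*, for a BTB-domain transcriptional repressor, *Parl*, for a rhomboid protease of mitochondria, *Thap1*, for a zinc finger factor, *Igf2bp2*, for an mRNA-binding protein, *Drc1*, for an axonemal protein, and *Neb*, for the muscle protein nebulin, had log2 fold changes between -2.36 and -1.55. The last of the 15 was the pseudogene *Spcs2-ps* (-1.47, SE 0.33), which was not called with the replicate block, under scaling by library totals or with the offset for GC content and length. *Gltscr2* was not called with DESeq2. *Igf2bp2* was not called in a fit of the 4 day 0 libraries or with all libraries thinned to equal depth. Of the 15 decreases, 7 kept their call without each of the 4 libraries, namely *Ifi204*, *Gdpd3*, *Nacc2*, *Gpr83*, *Lcn4*, *Klrd1* and *Drc1*. Without WT replicate 1, 7 were called, without WT replicate 2 there were 9, and without either library labelled KO there were 11.

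**Figure D2:**
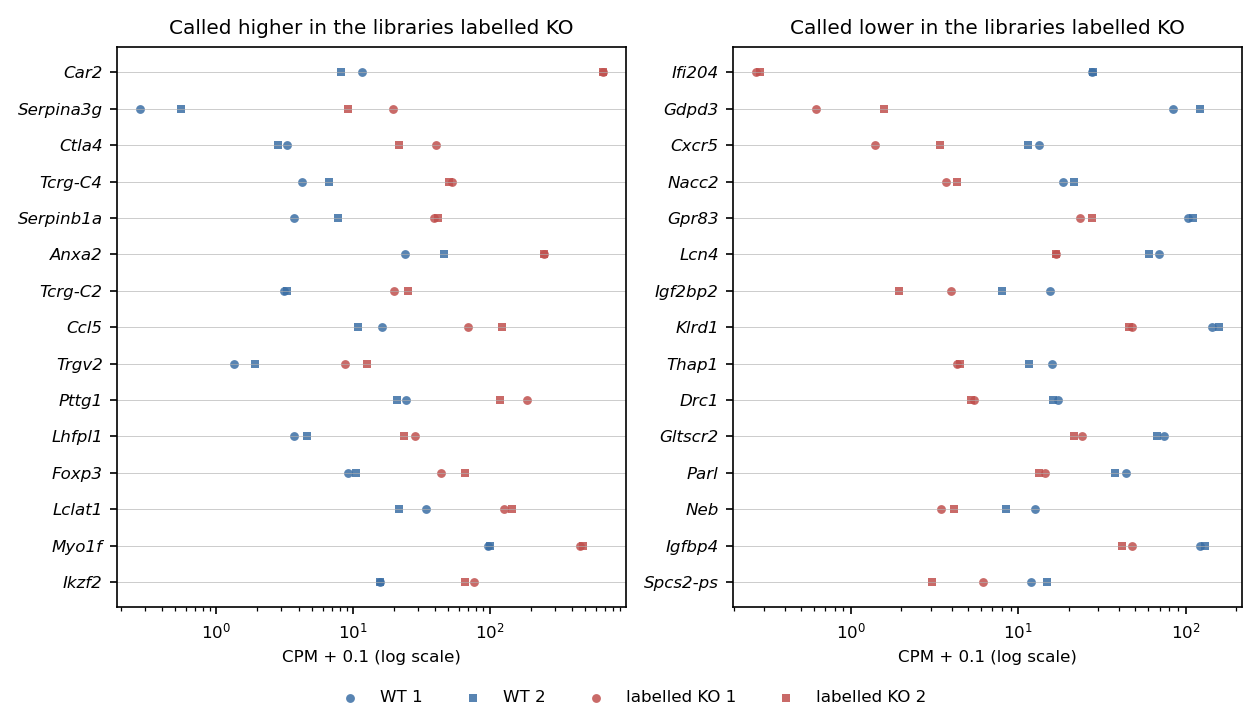
Level in each of the 4 day 0 libraries of the 15 named genes with the largest increases (left) and decreases (right), in CPM + 0.1 on a log axis. Each row is a gene, blue symbols are WT and red symbols are labelled KO, circles are replicate 1 and squares replicate 2; the rule that chose the genes asked for groups that do not overlap, and the 2 red symbols of *Car2* coincide near 674 CPM.

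For 6 of these genes the promoter is shown, because SATB1 is known to bind AT-rich DNA and these genes moved furthest in opposite directions. They are the 3 with the largest increases and the 3 with the largest decreases by rule that have a single start in the RefSeq promoter table (GRCm38.p6). Each run covers 250 bases before the start of transcription to 50 after it, 5′ to 3′ on the gene's strand, and capitals mark runs of 8 or more bases that are each A or T. The *Serpina3g* window is at chr12:104235897-104236196, that of *Ctla4* at chr1:60908775-60909074, that of *Anxa2* at chr9:69453433-69453732, that of *Gdpd3* at chr7:126766164-126766463 and that of *Gpr83* at chr9:14859960-14860259, all on the plus strand, and that of *Lcn4* at chr2:26671233-26671532 on the minus strand.
Serpina3g: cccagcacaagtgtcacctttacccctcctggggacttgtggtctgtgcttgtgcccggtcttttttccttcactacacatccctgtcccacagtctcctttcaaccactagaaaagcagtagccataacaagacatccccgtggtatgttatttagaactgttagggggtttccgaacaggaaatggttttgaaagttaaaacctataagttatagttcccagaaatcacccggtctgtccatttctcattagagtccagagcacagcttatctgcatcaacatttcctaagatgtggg
Ctla4: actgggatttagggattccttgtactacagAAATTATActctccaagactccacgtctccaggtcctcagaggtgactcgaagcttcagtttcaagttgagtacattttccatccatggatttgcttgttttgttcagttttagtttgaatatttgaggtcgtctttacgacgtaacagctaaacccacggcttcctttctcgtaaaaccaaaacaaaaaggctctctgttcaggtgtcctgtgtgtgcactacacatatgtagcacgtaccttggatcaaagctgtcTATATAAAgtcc
Anxa2: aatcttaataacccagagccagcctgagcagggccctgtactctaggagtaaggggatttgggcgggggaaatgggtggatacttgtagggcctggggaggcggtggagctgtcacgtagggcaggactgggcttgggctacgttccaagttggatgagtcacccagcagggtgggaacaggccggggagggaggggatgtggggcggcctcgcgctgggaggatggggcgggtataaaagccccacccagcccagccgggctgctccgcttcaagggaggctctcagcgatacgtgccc
Gdpd3: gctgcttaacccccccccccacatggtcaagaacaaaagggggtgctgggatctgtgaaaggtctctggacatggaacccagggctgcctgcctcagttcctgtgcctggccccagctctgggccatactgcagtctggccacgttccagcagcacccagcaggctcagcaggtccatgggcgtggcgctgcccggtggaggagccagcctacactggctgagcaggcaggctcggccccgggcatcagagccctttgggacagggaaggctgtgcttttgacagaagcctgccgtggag
Gpr83: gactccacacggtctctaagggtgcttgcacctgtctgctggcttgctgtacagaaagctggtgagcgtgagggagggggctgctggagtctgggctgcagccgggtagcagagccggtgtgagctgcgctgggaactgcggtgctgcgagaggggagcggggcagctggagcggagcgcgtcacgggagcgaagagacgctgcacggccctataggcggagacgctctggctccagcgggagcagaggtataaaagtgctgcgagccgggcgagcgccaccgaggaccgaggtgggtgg
Lcn4: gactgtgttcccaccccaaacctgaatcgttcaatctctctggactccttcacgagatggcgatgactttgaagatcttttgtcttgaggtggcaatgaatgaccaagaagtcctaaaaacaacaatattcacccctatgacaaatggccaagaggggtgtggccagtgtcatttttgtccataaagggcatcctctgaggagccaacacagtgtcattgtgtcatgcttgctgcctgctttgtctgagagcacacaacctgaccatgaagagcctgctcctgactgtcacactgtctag
The *Ctla4* window held 2 such runs and the other 5 windows held none. The share of A and T was 54.3% in *Serpina3g*, 58% in *Ctla4* and 36.3% in *Anxa2*, which rose, and 35.7% in *Gdpd3*, 33% in *Gpr83* and 52% in *Lcn4*, which fell, so the shares of the groups overlapped. Of all 32851 promoters in the table, 41.9% held at least 1 such run on either strand, and the median share of A and T was 47.3%. Among the tested genes with a promoter there, 30.9% had at least 1 run and the median share was 39.3%. A comparison of this composition over the called genes is void, because the table held a promoter for only 62.6% of the genes called higher, 71.4% of those called lower and 68.5% of all genes tested. The transcripts themselves differed in composition. The median GC content of the exons was 44.6% for genes called higher, 51.0% for genes called lower and 49.0% for all tested, and the median exon length was 4577, 2835 and 4040 bases. With an offset per library for both, 182 genes were called, 174 of them among the 227.

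In the list of 24 genes of the T-cell receptor complex and the CD8 lineage, 1 was called (4.17%, against 1.8% of all genes), and the median log2 fold change was -0.03. *Cd8b1* was at 4057 and 3663 CPM in WT and at 3367 and 3418 CPM in the libraries labelled KO (log2 fold change -0.19, SE 0.10, FDR 0.464), *Lck* at 3701 and 3846 against 3513 and 3802 CPM, and *Trac* at 2351 and 2565 against 2612 and 2854 CPM. The called member was *Lat*, the adaptor that relays receptor signals, at 1549 and 1772.5 CPM against 1177 and 1113 CPM (-0.54, SE 0.11, FDR 0.0269), and it was not called with an offset for GC content and length, nor without any 1 library. The 95% interval of *Lck* ran from -0.27 to 0.18. Without a filter on low counts the median of the list was 0.0056.

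Genes known from regulatory T cells moved in both directions. Of 18 tested, 3 rose and 2 fell (27.8%, against 1.8% of all genes). *Foxp3*, the lineage factor of regulatory T cells, was at 9.12 and 10.4 CPM in WT and at 43.8 and 65.9 CPM in the libraries labelled KO (2.48, SE 0.34, FDR 0.00271). *Ikzf2*, which encodes Helios, was at 15.6 and 15.6 CPM against 77.3 and 66.2 CPM (2.21, SE 0.29, FDR 0.00198). *Ctla4*, an inhibitory receptor that competes with CD28, was at 3.22 and 2.71 CPM against 40.3 and 21.7 CPM (3.40, SE 0.32, FDR 0.000106). These 3 rose while *Gpr83* fell, and so did *Capg*, an actin-capping protein, at 33.8 and 30.5 CPM against 13.1 and 12.5 CPM (-1.32, SE 0.14). The median of the list was 0.34, and 0.037 when its 4 genes at the counting floor in a group were set to their bound. It was 0.20 without WT replicate 2, 0.17 without KO replicate 1, 0.099 without KO replicate 2 and 0.19 at equal depth. *Tnfrsf18*, its most abundant member, was at 306 and 285 CPM against 289 and 334 CPM and was not called. *Cd4* did not pass the filter on low counts, with 0, 1, 7 and 5 counts. Since these are bulk samples, more cells of a kind and more RNA per cell cannot be told apart. *Foxp3* shares 18.6% of its exon length with other genes on its strand and 18.7% with genes on the other strand, and the strand setting of the counting is not given in the sources used here.

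Of the 9 tested genes of the CD4 helper list, 2 fell (22.2%, against 0.889% of all genes) and none rose. They were *Cxcr5* and *Izumo1r*, which encodes folate receptor 4, at 133 and 144 CPM against 74.5 and 62.2 CPM (-1.02, SE 0.16). *Izumo1r* and *Gpr83* are neighbours on chromosome 9, the only tested genes in a stretch of 44 kb, and both fell. The 3 CD4 T-cell markers summed to 3.58 and 1.36 CPM in WT and 6.26 and 6.06 CPM in the libraries labelled KO, mostly *Cd40lg* (1.61 and 1.13 against 5.66 and 3.85 CPM, FDR 0.134). Their part in the differences of these lists was not tested. Among 13 inhibitory receptors *Ctla4* alone was called (7.69%, against 1.8% of all genes), and none of 13 costimulatory receptors was. *Cd96*, the most abundant inhibitory receptor, had a log2 fold change of -0.04 (SE 0.11).

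Of 7 tested genes in a stretch of the T-cell receptor gamma locus, 4 rose (against 0.913% of all genes) and none fell, and the called genes themselves set the ends of the stretch. This locus encodes the gamma chains of gamma-delta T cells and is also transcribed in some alpha-beta T cells. *Tcrg-C4* was at 4.11 and 6.56 CPM in WT and at 52.8 and 50.3 CPM in the libraries labelled KO (3.29, SE 0.27, FDR 5.69e-05). *Tcrg-C2* was at 3.04 and 3.17 CPM against 19.99 and 25.1 CPM (2.84, SE 0.24), and the variable segment *Trgv2* at 1.25 and 1.81 CPM against 8.58 and 12.7 CPM (2.76, SE 0.38). *Tcrg-C1* was at 1.79 and 1.81 CPM against 5.06 and 7.34 CPM (1.72, SE 0.35, FDR 0.0280). The 7 genes lie within 139 kb on chromosome 13. The other 3, *Trgj2* (0 and 0 against 1.03 and 0.734 CPM), *Trgj4* (0.537 and 0.678 against 2.83 and 3.12 CPM) and *Tcrg-C3* (0 and 0.226 against 0 and 0 CPM), were not called, and they were named after their values were seen. Segments of this locus include close copies, and how many reads they share was not measured. The delta chain gene was not called. *Trdc* was at 53.3 and 81.9 CPM in WT and at 80.9 and 77.3 CPM in the libraries labelled KO (0.23, SE 0.25, FDR 0.763, 95% interval -0.30 to 0.77). *Sox13*, *Il23r*, *Zbtb16* and *Cd163l1*, markers of gamma-delta and innate-like T cells, were at or below 1.10 CPM in every library. The whole list of 11 markers summed to 62.6 and 95.9 CPM in WT and to 163 and 164 CPM in the libraries labelled KO. Over the lists of identity, regulatory, inhibitory, costimulatory and gamma-delta genes, 11 were called, and 5 of them kept the call without each library, *Ctla4*, *Gpr83*, *Capg*, *Tcrg-C2* and *Tcrg-C4*. Without WT replicate 1 or WT replicate 2, 5 were called, without KO replicate 1 there were 9 and without KO replicate 2 there were 8.

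Of 24 tested genes of the naive state, 2 rose and 2 fell (16.7%, against 1.8% of all genes), and the median was 0.10. The median was 0.064 without WT replicate 1, 0.048 without WT replicate 2 and, with an offset for GC content and length, 0.032. *Ccr7*, the receptor for entry into lymph nodes, was at 1900 and 1789 CPM in WT and at 1448 and 1371 CPM in the libraries labelled KO, and was not called (-0.39, SE 0.10, FDR 0.0905). *Dapl1*, a marker of resting naive T cells, fell from 833 and 796 CPM to 472 and 462 CPM (-0.80, SE 0.14, FDR 0.0101), as did *Igfbp4*. *Nsg2*, a neuronal endosomal protein, rose from 35.6 and 34.8 CPM to 136 and 62.9 CPM (1.51, SE 0.32), and *Btg2*, an antiproliferative factor, from 299 and 323 CPM to 462 and 428 CPM (0.52, SE 0.12, FDR 0.0449). *Btg2* was not called with the replicate block, in which the replicate number of the labels is a term in the fit. The called members thus went both ways, with replicates labelled KO that differed for *Nsg2*.

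Of 21 memory and effector genes tested, 4 rose and none fell (19.05%, against 0.913% of all genes called higher), with a median of 0.24. The median was 0.51 without WT replicate 1, 0.54 without WT replicate 2, 0.51 without KO replicate 2 and 0.43 at equal depth, where 0, 1, 2 and 3 genes were called. *Il2rb*, the chain of the IL-2 and IL-15 receptors that marks memory CD8 T cells, was at 94.8 and 103 CPM in WT and at 228 and 194 CPM in the libraries labelled KO (1.10, SE 0.14, FDR 0.00116). *Itga4*, the alpha-4 integrin chain, was at 227 and 224 CPM against 333 and 328 CPM (0.55, SE 0.12, FDR 0.0395), and *Ahnak*, a giant scaffold protein, at 69.2 and 76.9 CPM against 112 and 117 CPM (0.65, SE 0.13). The fourth was *Ccl5*. *Itga4* was not called with the replicate block, at equal depth or with the offset for GC content and length, and *Ahnak* was not with that offset. *Cxcr6*, an abundant member, was at 411 and 491 CPM against 546 and 514 CPM and was not called. None of the 18 genes of the cytotoxic granule and killing list was called in either direction, and 11 of them had a positive and 7 a negative log2 fold change. *Nkg7*, for a granule membrane protein, was at 2154 and 2244 CPM against 1940 and 2187 CPM (-0.09, SE 0.12, FDR 0.815).

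Of 18 transcription factors of effector and exhausted cells tested, 17 had a positive log2 fold change against 6258 of 12597 over all genes, the median was 0.30, and 2 were called, *Ikzf2* and *Id3* (11.1%, against 1.8% of all genes). The median was 0.54 without WT replicate 2 and 0.47 without KO replicate 2. *Id3*, an inhibitor of E-protein factors, was at 138 and 123 CPM in WT and at 197 and 206 CPM in the libraries labelled KO (0.63, SE 0.13, FDR 0.0318). *Id2* was the 1 with a negative value (-0.51, SE 0.23, FDR 0.348). *Tox*, the exhaustion-associated factor, was at 236 and 216 CPM against 298 and 265 CPM and was not called (0.32, SE 0.17, FDR 0.464). Members of this list other than those 2 are therefore given as values and not as changes.

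Lectin-like and Fc receptors best known from NK cells moved in both directions. Of the 20 listed, 6 were tested, and 1 rose and 2 fell (50%, against 1.8% of all genes). *Klrk1*, which encodes the activating receptor NKG2D, had 0.894 and 0.904 CPM in WT and 4.55 and 6.79 CPM in the libraries labelled KO (2.57, SE 0.39, FDR 0.00510), while *Klrd1*, its neighbour on chromosome 6, fell as given above. No other gene was tested in the stretch of 32 kb that they span. *Fcgr3*, an activating Fc receptor, was at 6.26 and 3.17 CPM in WT and at 0.600 and 0.367 CPM in the libraries labelled KO (-3.16, SE 0.53). The defining NK-cell genes *Ncr1*, *Klrb1c* and *Tyrobp* were below 1 CPM in all 4 libraries. None of 11 thymocyte and recombination genes was called. Over the lists of naive, memory, cytotoxic, transcription factor, lectin-like and thymocyte genes, 13 were called. Without WT replicate 1 it was 1 of them (*Klrd1*), without WT replicate 2 it was 3, and without either library labelled KO it was 8.

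Of 12 cytokines tested, *Il2* and *Tnfsf14* rose (16.7%, against 0.913% of all genes) and none fell. *Il2*, the T-cell growth factor, had 1 and 2 counts in WT but 5.83 and 9.18 CPM in those labelled KO, which against the floor of 3 counts is at least 11.1-fold higher. *Gm12583*, the only other tested gene of an 18 kb stretch with *Il2*, was chosen after its values were seen and also rose (4.13, SE 0.79). *Tnfsf14*, which encodes LIGHT, was at 1.07 and 0.452 CPM against 6.35 and 4.40 CPM (2.76, SE 0.54). *Il16*, the most abundant listed cytokine, was at 529 and 587 CPM against 582 and 490 CPM and was not called. The median of the list was 0.39 and became 0 when its 5 genes at the floor were set to their bound. It was 0.61 without WT replicate 1, 0.18 without WT replicate 2 and 0.23 without KO replicate 1.

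Of 25 cytokine receptors, 3 rose (12%, against 0.913% of all genes) and none fell, with a median of 0.23. The median was 0.14 without WT replicate 2 and 0.022 without KO replicate 1. *Ifngr1*, the ligand-binding chain of the interferon-gamma receptor, was at 476 and 561 CPM in WT and at 1352 and 1127 CPM in the libraries labelled KO (1.26, SE 0.13, FDR 0.000279). *Il10ra*, the IL-10 receptor chain, was at 7.51 and 17.9 CPM against 69.1 and 39.8 CPM (2.15, SE 0.33). The replicates of *Il10ra* differed within each group but did not cross. *Il2rb* was the third. *Il7r*, the receptor for the survival cytokine of naive and memory cells, was at 986 and 1006 CPM against 1356 and 1394 CPM and was not called (0.47, SE 0.15, FDR 0.191), and *Il2rg*, the common gamma chain, had a log2 fold change of -0.14 (SE 0.14).

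Among 17 chemokines and trafficking receptors, *Ccl5* and *P2ry10* rose and *Cxcr5* fell (17.6%, against 1.8% of all genes). *P2ry10*, a lysophospholipid receptor of lymphocytes, was at 76.2 and 78.9 CPM in WT and at 235 and 205 CPM in the libraries labelled KO (1.51, SE 0.15, FDR 0.000233). Its replicates were close in both groups. *S1pr1*, the receptor for exit from lymphoid organs, was at 1288 and 1230 CPM against 1314 and 1277 CPM (0.04, SE 0.11). Of 14 integrins, *Itga4* and *Itgav*, the alpha-V chain (9.84 and 9.04 against 20.4 and 25.3 CPM, 1.26, SE 0.22), rose (14.3%, against 0.913% of all genes) and none fell. Neither the 24 brakes on receptor signalling nor the abundant activation marker *Cd69* were called. Of 25 immediate early genes, 2 fell (8%, against 0.889% of all genes), namely *Nfkbia*, the inhibitor of NF-kappaB (161 and 155 against 75.4 and 86.4 CPM, -0.97, SE 0.21, FDR 0.0357), and *Dusp6*, a phosphatase of the ERK kinases (42.0 and 38.7 against 25.6 and 23.5 CPM, -0.71, SE 0.15, FDR 0.0340). Over these 6 lists 12 genes were called, of which 2, *Ifngr1* and *P2ry10*, kept the call without each library. The number was 2 without WT replicate 1, 5 without WT replicate 2, 7 without KO replicate 1 and 9 without KO replicate 2. *Dusp6* and *Nfkbia* also lost their call under scaling by library totals, and likewise with an offset for GC content and length, and *Dusp6* without a filter on low counts and in a fit of the 4 day 0 libraries.

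Of 10 serpins tested, 3 rose (30%, against 0.913% of all genes), 9 had a positive value, against 6258 of 12597 over all genes, and the median was 0.51. *Serpina3g*, an inhibitor of cathepsins in activated T cells, had 1 and 2 counts in WT and 19.5 and 9.18 CPM in those labelled KO, which is at least 21.1-fold higher. *Serpinb1a*, an inhibitor of neutrophil-type serine proteases, was at 3.58 and 7.69 CPM against 39.1 and 41.8 CPM (2.88, SE 0.31), and *Serpinb6b* at 38.5 and 34.4 CPM against 84.2 and 66.6 CPM (1.05, SE 0.17). *Serpinb9*, the inhibitor of granzyme B, was at 29.5 and 28.7 CPM against 43.8 and 41.3 CPM and was not called (FDR 0.149). *Serpinb1a* and *Serpinb6b* lie in 1 stretch of chromosome 13. Serpins have close copies, and the reads that could be placed at more than 1 site, of whatever source, made up 31.8% to 34.5% of all reads in these libraries.

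Of 19 annexins, S100 proteins and related genes, 3 rose, *Anxa2*, *Anxa4* (6.08 and 6.11 against 14.0 and 19.1 CPM, 1.41, SE 0.23) and *Ahnak* (15.8%, against 0.913% of all genes), and 17 had a positive value. The median of 0.34 became 0.20 with its 5 genes at the floor set to their bound. *Anxa6*, the most abundant of the family here, was at 965 and 940 CPM against 1256 and 1162 CPM and was not called (0.34, SE 0.12, FDR 0.216). In the PYHIN cluster, *Pydc4* rose and *Ifi204* fell among 8 tested (25%, against 1.8% of all genes). *Pydc4* was at 133 and 145 CPM against 236 and 250 CPM (0.80, SE 0.17, FDR 0.0327), and was not called with the offset for GC content and length. *Pyhin1*, the most abundant member, was at 498 and 578 CPM against 934 and 939 CPM, and was not called (0.80, SE 0.21, FDR 0.0968). In all, 5 of the 8 had a positive and 3 a negative value. Of 41 interferon-stimulated genes tested, 34 had a positive value, against 6258 of 12597 over all genes, and the median was 0.22. In this list *Samhd1*, a nucleotide hydrolase that restricts viruses, was the 1 called, which is 2.44% against 1.8% of all genes (636 and 640 against 1108 and 1024 CPM, 0.74, SE 0.12, FDR 0.00899). The median of the list was 0.13 without WT replicate 1, 0.0087 without KO replicate 1 and 0.40 without KO replicate 2. No member of the Gimap GTPases (9 tested), the Schlafen family (7) or the class I antigen presentation list (20) was called. Of the 10 genes called in these families, *Car2*, *Anxa2*, *Serpinb1a* and *Ifi204* kept their call without each library. It was 4 of the 10 without WT replicate 1 or WT replicate 2, 7 without KO replicate 1 and 8 without KO replicate 2.

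**Figure D3:**
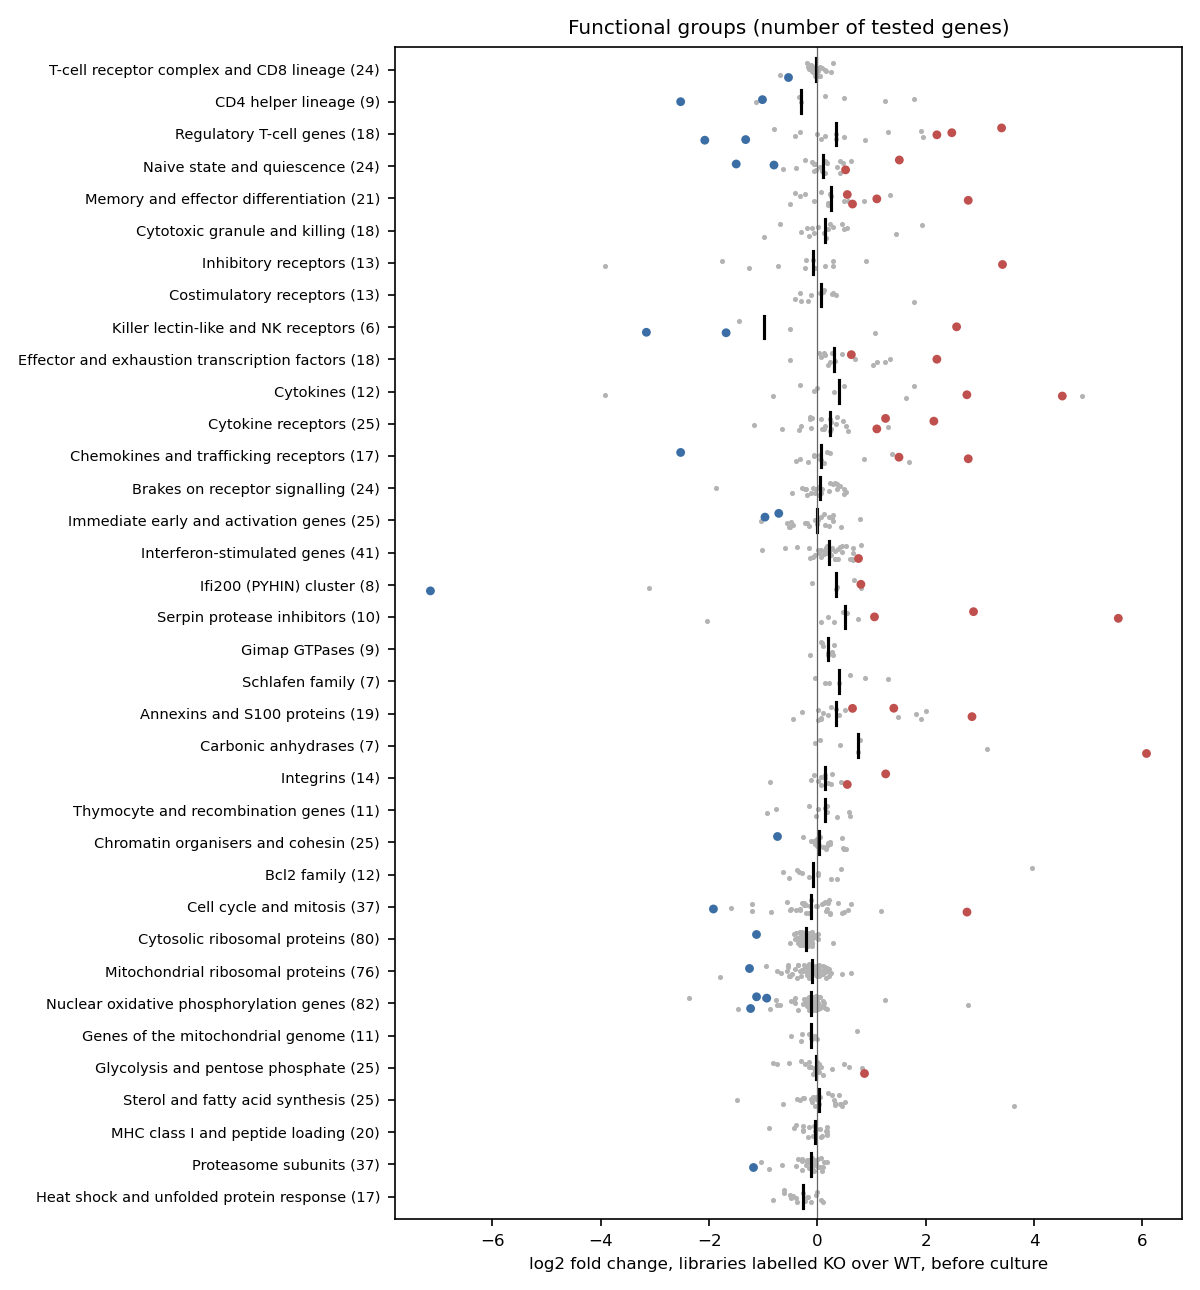
Log2 fold change before culture of every tested gene in 36 functional groups, with the number tested in brackets. Grey points were not called, red and blue points were called higher and lower, and the black bar is the median of the group; the medians of cytosolic ribosomal proteins (-0.22) and of heat shock genes (-0.26) are below 0 while their points lie close together.

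Among the lists of basic cell functions the shares called are to be read beside the 1.8% of all genes. Of 80 cytosolic ribosomal protein genes, 77 had a negative value and the median log2 fold change was -0.22, against -0.0017 over all genes. Over the 17 alternative settings this median stayed between -0.30 and -0.16. The 1 called member (1.25%) was *Rpl13*, at 41.9 and 29.6 CPM against 14.6 and 18.4 CPM (-1.14, SE 0.25, FDR 0.0367). It lost its call under scaling by library totals, and likewise with an offset for GC content and length. *Rpl4*, the most abundant, was at 5094 and 4902 CPM in WT and at 4007 and 4048 CPM in the libraries labelled KO and was not called (-0.31, SE 0.09, FDR 0.143). Of 82 nuclear genes of oxidative phosphorylation, 3 fell, *Uqcrc1* of complex III (155 and 174 against 77.5 and 73.0 CPM, -1.12, SE 0.16), *Cox6a1* of complex IV (-1.23, SE 0.25) and *Ndufa10* of complex I (-0.94, SE 0.21), and none rose (3.66%). *Ndufa10* was not called under scaling by library totals or with the offset for GC content and length, and *Cox6a1* was not with that offset. The median of the list was -0.12, as was that of 11 genes of the mitochondrial genome, none of which was called. The latter was 0.0023 without WT replicate 1, -0.22 without WT replicate 2, -0.20 without KO replicate 1, -0.026 without KO replicate 2 and -0.23 with the offset, and the former was -0.080 without WT replicate 1, -0.078 without KO replicate 1 and -0.080 with the offset.

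Of 76 mitochondrial ribosomal proteins *Mrps10* fell (1.32%, against 0.889% of all genes called lower), with a log2 fold change of -1.26 (SE 0.24). Of 37 proteasome subunits *Psmb4* fell (2.70%), from 38.6 and 36.6 CPM to 17.8 and 14.9 CPM (-1.19, SE 0.19). None of 17 heat shock and unfolded protein genes was called, and 15 of them had a negative value. Their median of -0.26 was -0.47 without WT replicate 1, -0.099 without WT replicate 2 and -0.15 without KO replicate 2. Of 25 genes of glycolysis and the pentose phosphate pathway, 1 was called (4%, against 1.8% of all genes). It was *Slc2a3*, which encodes the glucose transporter GLUT3 and rose from 134 and 158 CPM to 264 and 266 CPM (0.86, SE 0.12, FDR 0.00244), while the enzymes were not called. *Eno1* for example was at 871 and 952 CPM against 932 and 871 CPM. None of 25 genes of sterol and fatty acid synthesis was called. Of 25 chromatin organisers and cohesin genes, 1 was called (4%). It was *Smc3*, a core ring subunit of cohesin, which fell from 164 and 157 CPM to 94.0 and 96.5 CPM (-0.75, SE 0.14, FDR 0.0178). Its partner *Smc1a* was not called, at 378 and 366 CPM against 378 and 365 CPM.

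None of 12 genes of the Bcl2 family was called, and *Bcl2* itself, the survival factor of resting T cells, was just outside the threshold, at 383 and 430 CPM in WT and at 245 and 281 CPM in the libraries labelled KO (-0.63, SE 0.15, FDR 0.0655). Of 37 cell cycle genes, 2 were called (5.41%, against 1.8% of all genes). *Pttg1* rose, and *Birc5*, which encodes survivin, fell from 3.04 and 2.71 CPM to 1.03 and 0.184 CPM (-1.92, SE 0.42, FDR 0.0404). The median was -0.12 (-0.039 without KO replicate 2, -0.19 in a fit of the 4 day 0 libraries, -0.18 with an offset for GC content and length). *Birc5* was not called with the replicate block, in a fit of the 4 day 0 libraries or with the newer form of the quasi-likelihood test in edgeR. The called members of this list thus went in opposite directions. Over these lists of basic functions 10 genes were called, and none kept its call without each library. It was 1 of the 10 without WT replicate 1, 1 without WT replicate 2, 6 without KO replicate 1 and 5 without KO replicate 2.

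The called genes were spread over the genome. The share called was highest on chromosome 1 (26 of 812, 3.20%), chromosome 19 (3.13%) and chromosome 13 (2.91%) and lowest among the autosomes on chromosome 8 (1.10%). By gene type, 9 long intergenic RNAs of 265 tested were called higher and 1 lower, beside 92 higher and 104 lower of 10517 protein-coding genes. *Neat1*, the nuclear RNA that builds paraspeckles, was the most abundant of those that rose and was named after its values were seen (72.6 and 80.9 against 112 and 148 CPM, 0.76, SE 0.16, FDR 0.0301), and was not called with the offset for GC content and length. Of the 225 called genes with a position, 86 lay within 1 Mb of another called gene, in 34 stretches, of which 15 held changes in 1 direction. How often other tested genes lie this close was not counted, so these numbers do not show whether called genes cluster. On chromosome 7, *Lat* and *Gdpd3* lie in a stretch of 617 kb with *Gm9967* and *Cdipt*, which also fell, and *Cln3*, which rose, among 32 genes tested. On chromosome 1, *Ifi204* and *Gm16340* fell and *Pydc4* and *Gm4955* rose within 330 kb, where 6 genes were tested. The members of these stretches that the rule did not name were chosen after their values were seen.

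After 5 days of culture, 205 genes (1.63%) were called between WT and the libraries labelled KO, which are separate libraries from those of day 0. Of the 227 genes called before culture, 167 had the same sign of change after culture, 85 of the 115 that were higher and 82 of the 112 that were lower, and 36 were called at both days, all 36 with the same sign. *Car2* was at 0.882 and 0.964 CPM against 11.6 and 9.66 CPM after culture (3.51, SE 0.32, FDR 0.000241), a much lower level in both groups. *Myo1f* was at 149 and 157 CPM against 456 and 466 CPM after culture (1.59, SE 0.12), and the interaction of -0.66 (SE 0.16, FDR 0.138) was not called. *Gdpd3* (-5.79, SE 0.59), *Ifi204* (-3.92, SE 0.38), *Fcgr3* (-4.32, SE 0.53), *Klrd1* (-0.91, SE 0.14), *Dapl1* (-1.27, SE 0.15), *Serpinb1a* (2.09, SE 0.24), *Foxp3* (1.73, SE 0.32) and *Il2rb* (0.81, SE 0.13) were likewise called at both days.

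Other day 0 differences were not found after culture. The interaction, which tests whether the log2 fold change differed between the days, was called for 20 genes (0.159%), 14 of them called before culture. *Ctla4* rose with culture to 295 and 272 CPM in WT and 276 and 262 CPM in the libraries labelled KO, and its difference of 3.40 before culture became -0.07 (interaction -3.47, SE 0.38, FDR 0.00794). *Pttg1* went from a difference of 2.76 to -1.31 (interaction -4.07, SE 0.59, FDR 0.0168), *Klrk1* from 2.57 to -0.58 (-3.15, SE 0.43) and *Anxa2* from 2.85 to 0.64 (-2.21, SE 0.30). All 4 were called higher before culture and were not called after it. In the other direction, *Capg* went from -1.32 to 0.08 (1.40, SE 0.18, FDR 0.0113). For *Ikzf2* the difference after culture was 0.05, and the interaction was not called (-2.16, SE 0.42, FDR 0.0597). The number of interaction calls fell when either WT day 0 library was left out, which also changes the spread that the test uses. The number of day 5 calls, which do not compare those libraries, fell as well. Whether the size of the interactions depends on single libraries was not tested.

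**Figure D4:**
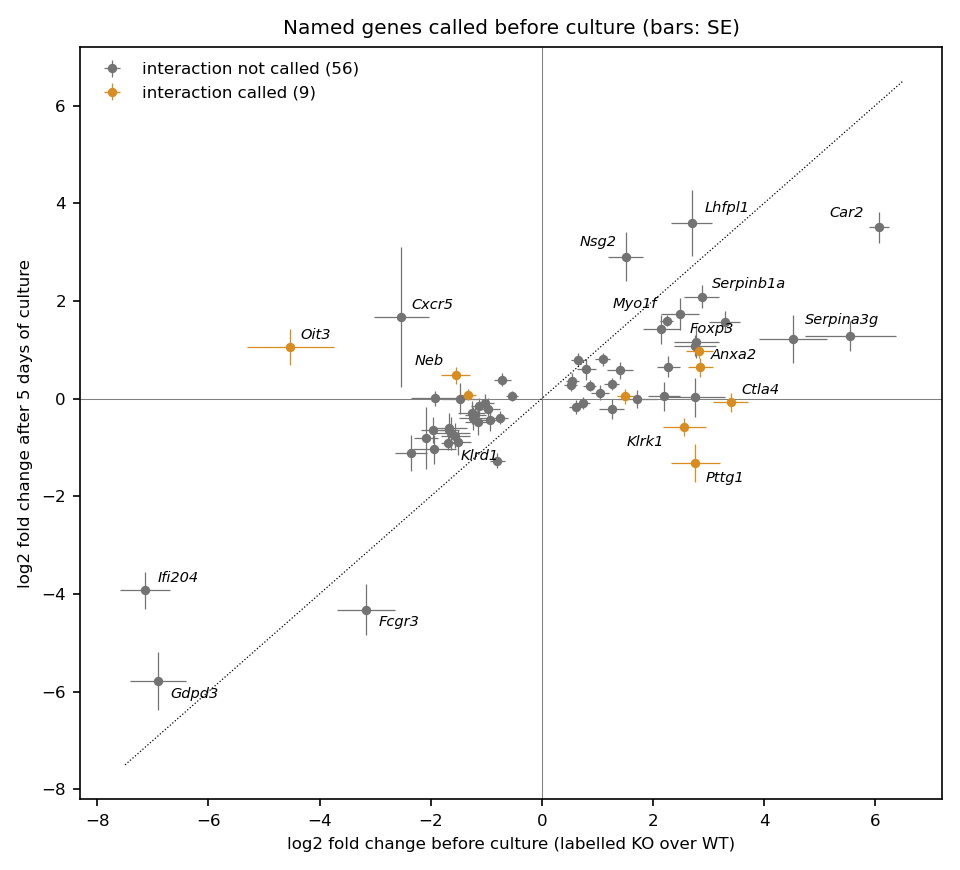
Log2 fold change, libraries labelled KO over WT, before culture (horizontal) and after 5 days of culture (vertical) for the 65 named genes called before culture, with bars of 1 SE. The dotted line marks equal changes and orange points are the 9 genes with a called interaction; *Ctla4* and *Pttg1* lie to the right and at or below 0 vertically, while *Gdpd3* and *Ifi204* are far below 0 on both axes.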

How the data were processed

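The authors deposited for each library raw read counts by gene symbol, neither normalized nor pooled. The submitters' processing notes name HISAT2 2.1.0, HTSeq 0.11.1 and the mm10 (GRCm38) assembly; the annotation and strand setting are not given in the sources used here. Lines that name no gene were left out. They held 76.1% to 78.8% of the reads of the day 0 libraries.

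Groups came from the labels. All 8 libraries entered 1 quasi-likelihood fit in edgeR 4.0.16 (R 4.3.3) with a mean per group, TMM scaling and the default low-count filter (minimum count 10), which left 12597 genes of 48321. P-values were two-sided and adjusted over those genes by the Benjamini-Hochberg method (FDR), and genes under 0.05 were called. The standard error is that implied by the F statistic. The common coefficient of biological variation was 15.0%. Intervals and the floor of 3 counts cover counting error or model spread only, since nothing says that the 2 libraries of a group came from separate mice and reads carried no molecular identifiers. Coordinates and exon lengths came from the GENCODE annotation of GRCm38, which matched 46985 symbols. Named genes were the 15 largest changes per direction with an assigned name, a mean of 10 CPM or more in the group with more, and replicates that did not overlap, the called members of the gene lists, abundant members as examples, and the 5 largest interactions per direction. The members and lists were chosen with earlier results of these data known. Alternatives included DESeq2 1.42.0. 1 item is not reported here.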

Additional observations from a re-analysis of the deposited data

Results flagged for a closer look

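For 13 named genes the difference between WT and the libraries labelled KO was itself different before and after culture, by the interaction term of the edgeR fit. A negative value means that the log2 fold change was lower after culture. It was -3.47 for *Ctla4*, -4.07 for *Pttg1*, -3.15 for *Klrk1*, -2.21 for *Anxa2*, -1.85 for *Tcrg-C2*, -1.46 for *P2ry10* and -1.34 for *Satb1*. It was 3.42 for *Tlr2*, 2.46 for *Fam46a*, 2.02 for *Neb*, 1.57 for *Mfsd10* and 1.40 for *Capg*. The value of 5.58 for *Oit3* rests on 1 and 0 counts in the libraries labelled KO before culture. Groups of 2 libraries were too small to look for single outlying samples.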

How the results depend on the processing

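Before culture, 227 genes were called (115 higher, 112 lower). Without a filter on low counts it was 434 (230 and 204), with the edgeR exact test 449 (223 and 226) and with a minimum change of 1.5-fold 60 (43 and 17). Leaving out 1 library gave 38 to 200 (23 to 106 higher, 15 to 122 lower). The share of calls that were higher was 50.7%, 71.7% with the minimum change and 39% to 67.3% without 1 library. At day 5, where 205 were called, it was 418 without the filter, 454 with the exact test, 350 with DESeq2, 26 with the minimum change, 120 with the offset for GC content and length and 119 to 249 without 1 day 0 library. For the interaction, where 20 were called, it was 154 without the filter, 144 with DESeq2, 2 with the minimum change, 12 with the offset, 39 at equal depth and 0 to 30 without 1 library. The interaction was not run with the exact test or in fits of 4 libraries.

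None of the 17 alternatives reversed the sign of a called gene. For the fits without 1 library this was nearly fixed in advance, since the groups did not overlap for any of the 227. The medians of 11 of the 36 gene lists did change sign under at least 1 alternative, such as the T-cell receptor list (-0.03 to 0.0056) and the CD4 helper list (-0.34 to 0.30). *Satb1* before culture stayed between 0.34 and 0.64 and was called under none. Of the 227 genes, 31 were called under every alternative. The replicate block gave 216 calls before culture, 215 at day 5 and 29 interactions. The deviations of same-numbered WT and KO libraries had a correlation of 0.0044 before culture and -0.017 at day 5, and those of the same genotype at both days 0.12 for WT and 0.23 for KO. The pairs of the same genotype at both days were above 0.1 and those of WT and KO were not. Whether same-numbered libraries of a genotype share an origin was not tested. The replicate block is a single term over both genotypes and does not model such a pairing. Scaling by library totals gave 202 calls and equal depth 223. The 95% interval lay within 1 log2 unit of 0 for 7478 of 12597 genes, and for the others this depth and number of libraries do not limit the difference that far.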
